A study of Mus musculus with 8 samples.

Results

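The genes described here are 34 genes of glycolysis and of the response to low oxygen, measured by RNA sequencing in cultured mouse cardiac fibroblasts. They were listed by name, with earlier results of these data known: 19 glycolytic enzymes and regulators, 4 glucose and lactate transporters, and 11 genes of the hypoxia response. They take 35 of the 54532 rows of the count table, because Aldoa is listed under 2 gene identifiers. A single row for each of the 34 genes passed the filter on low counts, and the second Aldoa row, with 0 to 0.456 CPM (read counts scaled to library size), did not.

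The cells were cardiac fibroblasts of C57BL/6 mice at passage 2, transfected either with a plasmid that carries HA-tagged murine Thbs4 or with an empty plasmid. Thbs4 encodes thrombospondin-4 (TSP-4), a secreted glycoprotein of the extracellular matrix, and the comparison asks what its overexpression changes in these cells. The Thbs4 plasmid drives its insert from a CMV promoter, and the empty plasmid is a different construct, so any difference is one between plasmids and not only one of Thbs4. Both groups were kept for 12 h in standard medium and then for 24 h without serum before RNA was taken. Each group has 4 libraries, titled A, B, C and D in both groups, and the labels say neither what the letters mark nor whether each library is from its own animal or culture. The p-values therefore measure only the spread between these libraries, which may in part be technical.

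The libraries held 17123735 to 22530947 counts. Thbs4 had 25754 to 38063 counts in the TSP-4 plasmid libraries and 2 to 11 in the empty plasmid libraries, as labelled. Fibroblast markers were abundant, with Col1a1, a collagen I chain, at 4557 to 6150 CPM and Pdgfra, a fibroblast receptor, at 37.9 to 99.7 CPM. Of other cell types, the macrophage gene Lyz2 reached 174 to 1020 CPM and Cd68 reached 20.6 to 75.1 CPM, the endothelial gene Pecam1 6.50 to 13.4 CPM and the cardiomyocyte gene Tnnt2 11.1 to 16.8 CPM. In such bulk samples, fewer cells of a type and less RNA per cell cannot be told apart.

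Glycolysis breaks glucose down to pyruvate: hexokinase traps glucose in the cell, phosphofructokinase sets the pace, and lactate dehydrogenase turns pyruvate into lactate, which leaves through monocarboxylate transporters. When oxygen is scarce, prolyl hydroxylases no longer mark the transcription factor HIF-1 alpha for destruction, and it raises the transcription of most glycolytic genes together with genes of mitophagy, vessel growth and oxygen sensing. HIF binds DNA at a short core, ACGTG or GCGTG, often close to the start of its target genes.

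The promoters of 5 members that differed between libraries are printed here, with that of Gpi1, a member that hardly varied. They were picked after the values were seen, to show how the matches lie. Each is the 250 bases before a RefSeq transcript start (GRCm38.p6), 5′ to 3′ on the gene's strand. Capitals mark every match to ACGTG or GCGTG on either strand, so CACGT and CACGC are also capitals. An ACGTG match overlaps the E-box CACGTG where a C precedes it, and each CACGTG counts as a match on each strand.
Slc16a3, chr11:120948817-120949066, plus strand: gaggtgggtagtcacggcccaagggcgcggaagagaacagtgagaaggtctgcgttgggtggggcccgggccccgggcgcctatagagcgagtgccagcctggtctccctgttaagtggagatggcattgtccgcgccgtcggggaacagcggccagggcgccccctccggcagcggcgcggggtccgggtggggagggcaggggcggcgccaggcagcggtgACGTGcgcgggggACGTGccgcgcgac
Egln3, chr12:54203875-54204124, minus strand: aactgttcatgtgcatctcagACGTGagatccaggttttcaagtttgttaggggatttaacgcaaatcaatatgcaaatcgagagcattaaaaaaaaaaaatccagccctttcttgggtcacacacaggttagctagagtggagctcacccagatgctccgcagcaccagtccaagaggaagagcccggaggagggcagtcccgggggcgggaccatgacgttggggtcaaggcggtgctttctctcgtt
Bnip3, chr7:138909507-138909756, minus strand: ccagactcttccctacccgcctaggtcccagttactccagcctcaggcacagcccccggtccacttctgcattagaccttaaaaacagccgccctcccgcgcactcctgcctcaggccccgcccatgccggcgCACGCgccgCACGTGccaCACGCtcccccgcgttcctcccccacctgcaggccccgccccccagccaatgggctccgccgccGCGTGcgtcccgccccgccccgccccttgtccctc
Hif1a, chr12:73907617-73907866, plus strand: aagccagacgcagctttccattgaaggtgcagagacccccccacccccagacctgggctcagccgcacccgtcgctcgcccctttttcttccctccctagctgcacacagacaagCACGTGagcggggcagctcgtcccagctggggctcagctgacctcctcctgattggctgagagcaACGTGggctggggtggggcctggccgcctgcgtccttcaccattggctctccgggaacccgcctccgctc
Adm, chr7:110627407-110627656, plus strand: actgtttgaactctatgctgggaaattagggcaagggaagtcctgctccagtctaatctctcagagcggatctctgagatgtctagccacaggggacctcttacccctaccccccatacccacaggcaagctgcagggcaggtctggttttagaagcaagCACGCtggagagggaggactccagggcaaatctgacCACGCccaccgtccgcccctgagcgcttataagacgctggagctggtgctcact
Gpi1, chr7:34230337-34230586, minus strand: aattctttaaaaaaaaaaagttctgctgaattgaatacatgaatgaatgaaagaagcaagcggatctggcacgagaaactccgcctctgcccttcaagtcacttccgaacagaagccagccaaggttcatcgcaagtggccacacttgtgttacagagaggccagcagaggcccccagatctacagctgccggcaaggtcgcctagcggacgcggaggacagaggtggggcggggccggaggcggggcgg

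Slc16a3 held 2 matches, at 27 and 14 bases before the start, and Egln3 held 1, at 229 bases. Bnip3 held 5 overlapping or close matches between 117 and 35 bases before the start, Hif1a held 3 and Adm 2, and the Gpi1 window held 0. A single CACGTG was counted on both strands in Bnip3, at 108 and 107 bases, and in Hif1a, at 135 and 134 bases. Among members called between the library letters below, 15 of 17 with an entry held a match, and among those not called, 13 of 14. Eno2 and Tpi1 were called and held 0, while Ankrd37 and Slc16a1, which were not called, held 4 each. A CACGTG of Slc16a1 was also counted on both strands, and the Ankrd37 matches at 155 and 152 bases overlapped. Promoter entries were found for 31 of the 34 members, and Slc2a3, Bnip3l and Ndrg1 were not matched. At least 1 match lay in a window of 28 of these 31 members (90.3%), against 11226 of all 27025 genes with an entry (41.5%). A gene with several windows has more chances of a match. Counted by window, 36 of 45 member windows held a match (80.0%), against 12679 of all 32851 (38.6%). Base composition was taken as the highest value over the windows of a gene. The members were also richer in G and C by this measure, with a median GC content of 62.8% against 52.8%. Their median number of CG dinucleotides was 14 against 6. Both motifs contain CG, and the part of base composition in the share of matches was not tested. A match is a description of the sequence, not of a bound site.

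The level of each gene per length was taken from the deposited FPKM, counts scaled to sequencing depth and to a single listed length per gene. The order of genes by FPKM, and the shares of isoforms below, rest on that length. In TSP-4 plasmid libraries Pfkp, listed at 13401 bases, averaged 79.3 CPM. Pfkm, listed at 3340 bases, averaged 38.0 CPM, yet stood above Pfkp in FPKM. Enzymes from the aldolase step onward led. Aldoa (aldolase A) averaged 328 FPKM over the 8 libraries, with a range of 314 to 352. Pkm (pyruvate kinase) averaged 257 FPKM, Eno1 (enolase 1) 233, Pgam1 (phosphoglycerate mutase) 207, Pgk1 (phosphoglycerate kinase) 201.5 and Ldha (lactate dehydrogenase A) 193. The range of Aldoa lay above all others, but from Pkm down to Ldha the ranges of neighbours in this order overlapped, so their order is not set apart by the spread over libraries. Adm, which encodes the secreted peptide adrenomedullin, was the only member outside the enzymes in this upper group, at 166 FPKM, and its range was wide (110 to 238).

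The steps of glycolysis that commit glucose ran at lower levels. Hk1 (hexokinase 1) averaged 22.9 FPKM and Hk2 (hexokinase 2) 16.4. Of the phosphofructokinase subunits, Pfkl averaged 18.3 FPKM, Pfkm 11.2 and Pfkp 5.89. The ranges of Hk1 and Hk2 did not overlap, while those of Pfkl and Pfkm did. The glucose transporter Slc2a1 (GLUT1) averaged 20.1 FPKM and Slc2a3 (GLUT3) 0.562. The monocarboxylate transporters Slc16a1 (MCT1) and Slc16a3 (MCT4) averaged 7.07 and 5.62 FPKM, with overlapping ranges. MCT4 is the form that suits cells with a high output of lactate. Of the prolyl hydroxylases, Egln1 (PHD2) averaged 33.2 FPKM and the hypoxia-induced Egln3 (PHD3) 3.24. Car9 (carbonic anhydrase 9), Ankrd37 and Aldoc (aldolase C) lay at the bottom of the order, with means of 0.643, 0.401 and 0.229 FPKM.

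**Figure D1:**
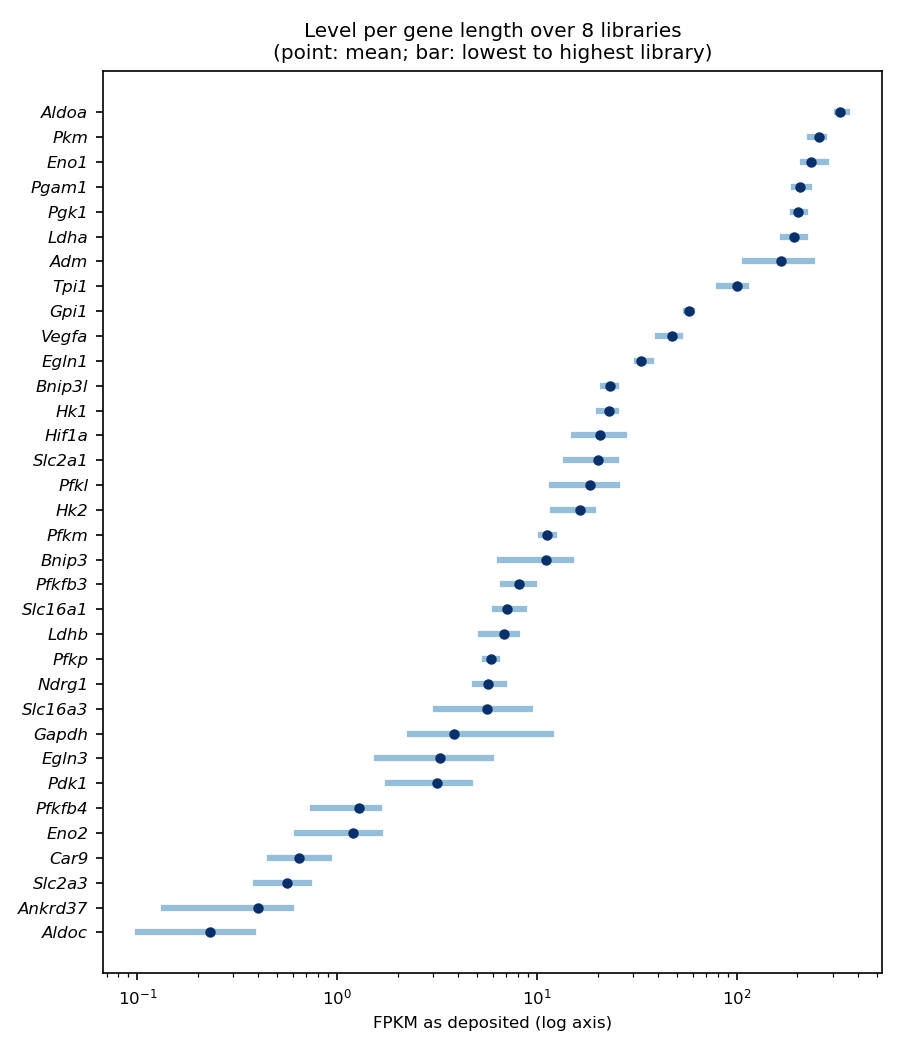
Level of each of the 34 members per listed gene length, as deposited FPKM on a log axis. Points are means over 8 libraries and bars run from the lowest to the highest library. Aldoa, Pkm and Eno1 stand highest, Aldoc is lowest at 0.229 FPKM, and Gapdh sits in the 26th place with a bar stretched by 1 library.

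Gapdh, the glyceraldehyde-3-phosphate dehydrogenase gene that is widely used as an abundant reference, stood in the 26th place with 3.82 FPKM. In the TSP-4 plasmid libraries A to D it had 10.02, 10.9, 11.8 and 9.55 CPM, and in the empty plasmid libraries 11.5, 49.0, 12.8 and 11.5 CPM. Library B of the empty plasmid thus stood apart from the other 7. In the GENCODE M21 transcripts, 25.1% of the 50-base windows of Gapdh also occur in 223 other genes, of which 213 are pseudogenes. How the authors counted reads that fit several places is not given in the sources used here, so the Gapdh values are uncertain, and the part of shared sequence in them was not tested. Shared windows were also common in Pgk1 (53.9%), Bnip3 (47.2%), Pgam1 (36.2%), Eno1 (26.0%), Pkm (25.8%), Ldhb (20.99%) and Bnip3l (20.8%). Hk2, Pfkfb4, Slc16a1, Slc16a3, Pdk1, Egln1, Egln3, Adm and Aldoc shared 0 windows.

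The first comparison was between the plasmids. None of the 34 members passed the test: 0 were called by edgeR's quasi-likelihood test at an adjusted p under 0.05, where 1 of 14723 genes (0.00679%), Thbs4 itself, was called. DESeq2 and limma-voom also called 0 members. With the letter as a replicate block, edgeR again called 0 members, against 2 of all genes (0.0136%). At an unadjusted p under 0.05 there was 1 member, against 235 of all genes (1.6%), and with the block there were 5 (Hk2, Pfkfb4, Pdk1, Egln1 and Ndrg1), against 1196 of all genes (8.12%).

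The member with an unadjusted p under 0.05 was Egln1, at chr8:124908587-124949324, which encodes the prolyl hydroxylase that is the main brake on HIF-1 alpha in normal oxygen. It had 113.7, 114.0, 114.6 and 114.9 CPM in TSP-4 plasmid libraries A to D and 115.6, 130.1, 134.9 and 120.4 CPM in the empty plasmid libraries. The groups did not overlap, which held for 1 of 34 members and for 1.51% of all genes, and the TSP-4 plasmid library was the lower of the pair in 4 of 4 letters. Its log2 fold change was -0.13 (SE 0.055, 95% interval -0.255 to -0.00818, edgeR), with an adjusted p of 1.00. The difference thus did not pass the test over all genes. Its unadjusted edgeR p was above 0.05 in 6 of the 8 fits that left out 1 library, and reached 0.118 without library C of the empty plasmid.

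The enzymes and regulators gave 0 calls of 19, the transporters 0 of 4 and the hypoxia response genes 0 of 11. For Slc16a3, which exports lactate, the TSP-4 plasmid libraries averaged 30.8 ± 15.4 CPM and the empty plasmid libraries 29.3 ± 13.8 CPM (SD, n = 4), which gave a log2 fold change of 0.07 (95% interval -0.97 to 1.11). For Hif1a, the gene of HIF-1 alpha, the means were 125 ± 36.2 and 120 ± 30.8 CPM, and the log2 fold change was 0.06 (interval -0.52 to 0.64). For both genes the groups overlapped. Ldha gave 649 ± 69.0 and 634 ± 73.7 CPM and an interval from -0.20 to 0.26. Gpi1, glucose-6-phosphate isomerase, gave 375 ± 7.19 and 371 ± 6.595 CPM and the narrow interval of -0.08 to 0.11. The interval stayed within a 2-fold change in either direction for 29 of the 34 members and for 13034 of all 14723 genes. It was wide for Egln3, from -1.14 to 1.23. These intervals come from the fit without the replicate block, in which the spread between letters counts as error. With the block the SE was 0.118 for Egln3, against 0.512 without it. It was 0.067 against 0.451 for Slc16a3 and 0.043 against 0.250 for Hif1a, but 0.498 against 0.506 for Gapdh.

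Small differences leaned upward without passing the test. The log2 fold change was above 0 for 27 of 34 members, against 7354 of all genes (49.9%), with a median of 0.05 against -0.00. This count rested on single libraries: it was 16 without TSP-4 plasmid library C, 17 without empty plasmid library D, 18 without TSP-4 plasmid library B and 18 without empty plasmid library A. The members share their libraries and so are not independent of each other. Pfkfb4, Eno1, Ndrg1 and Car9 were higher with the TSP-4 plasmid in 4 of 4 letters, as were 8.03% of all genes, and Hk2, Gapdh, Eno2 and Egln1 were lower in 4 of 4, as were 8.04%. The log2 fold change of Gapdh was -1.001 (SE 0.51), and it was -0.18 without library B of the empty plasmid.

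**Figure D2:**
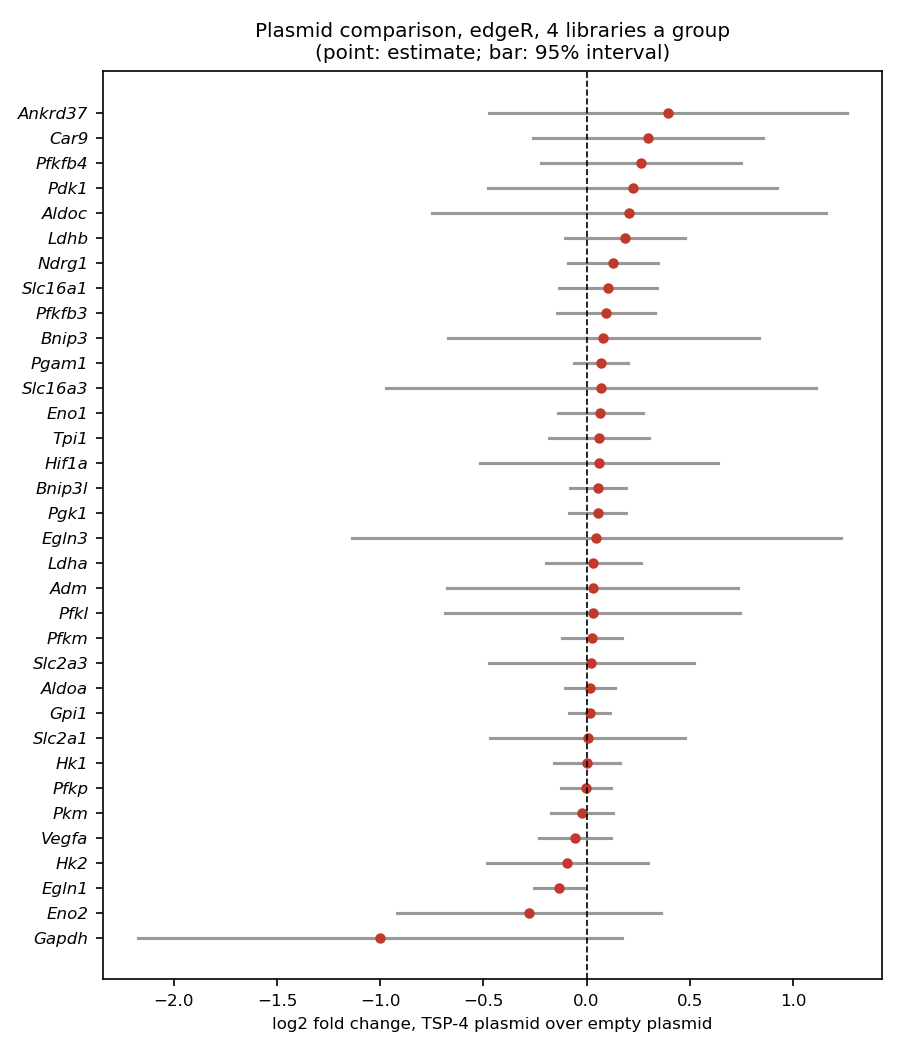
Log2 fold change of each member, TSP-4 plasmid over empty plasmid (edgeR without the replicate block, 4 libraries a group). Points are estimates and bars 95% intervals. All intervals but that of Egln1 cross 0, and the estimate of Gapdh, at -1.001, rests on library B of the empty plasmid.

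The balance between isoforms was compared as a share of summed FPKM in 10 pairs or triplets. Hk2 made up 40.6 ± 4.02% of hexokinase 1 and 2 in TSP-4 plasmid libraries, against 42.3 ± 3.94% in empty plasmid libraries (SD, n = 4), a difference smaller than the SD, though lower with the TSP-4 plasmid in 4 of 4 letters. Ldhb, which favours the reverse reaction from lactate to pyruvate, made up 3.61 ± 0.189% and 3.25 ± 0.362% of Ldha and Ldhb (two-sided exact permutation p = 0.143, adjusted p = 0.971). None of the 10 shares passed: the adjusted exact permutation p was 0.971 for each, and the smallest unadjusted p that 4 libraries against 4 can give is 0.0286. A single share at that p could not pass after adjustment over 10 shares, so no conclusion on single shares is drawn from this outcome. The shares of Hk2 and Eno2 were lower with the TSP-4 plasmid in 4 of 4 letters and those of Ldhb and Pfkfb4 higher in 4 of 4. For these an exact permutation within letters gave p = 0.125, the smallest it can give, and an adjusted p of 0.312, so no share could pass that test. The share of Slc16a3 in the monocarboxylate transporter pair ran from 28.0 to 58.2% over the 8 libraries, and that of Egln3 in the prolyl hydroxylase pair from 4.65 to 15.5%, so these shares moved widely between libraries of both groups.

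The second comparison was between the letters A to D, with the plasmid in the model. Here 18 of 34 members (52.9%) were called by edgeR's quasi-likelihood F test at an adjusted p under 0.05, where 4134 of all genes (28.1%) were called. Among them were 9 of 19 enzymes and regulators, 2 of 4 transporters and 7 of 11 hypoxia response genes. The median difference between the highest and the lowest letter was 0.38 on the log2 CPM scale for members and 0.30 for all genes. Libraries B and C had the highest letter means in 22 of 34 members, against 25.4% of all genes. The same held for 14 of the 18 called members, against 40.4% of the genes called. This order was noticed in the values and is a description. It held for 22 members under RLE scaling and for 20 when CPM were taken from total counts.

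Among the hypoxia response genes, Egln3 had the widest span of all members called. Egln3 (chr12:54178981-54203860), the oxygen sensor whose promoter is printed above, had 4.92, 9.98, 15.6 and 4.83 CPM in TSP-4 plasmid libraries A to D and 4.18, 12.1, 12.7 and 5.11 CPM in the empty plasmid libraries. Letters B and C were high and A and D low in both groups, without overlap. The span between letter means was 1.61 on the log2 scale, or 3.06-fold (adjusted p = 7.84e-06, edgeR).

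Bnip3 (chr7:138890836-138909519), a mitophagy receptor on the mitochondrial surface, had 21.3, 33.5, 33.4 and 14.8 CPM with the TSP-4 plasmid and 19.8, 30.7, 31.6 and 15.4 CPM with the empty plasmid. Its letters spanned 2.14-fold (adjusted p = 1.36e-06, edgeR), with the same pair of letters high in both groups. Its close relative Bnip3l did not pass the test (adjusted p = 0.391, edgeR) and stayed between 81.8 and 95.7 CPM. With its many shared windows and an antisense partner, Gm45507, over its exons, the Bnip3 values are uncertain in the way described for Gapdh.

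Pdk1 (chr2:71873224-71903858), the kinase that shuts off pyruvate dehydrogenase and so keeps pyruvate out of the mitochondria, had 23.9, 30.0, 35.7 and 15.8 CPM with the TSP-4 plasmid and 19.8, 30.2, 26.4 and 13.9 CPM with the empty plasmid. Letter D was lowest and B and C highest in both groups, spanning 2.06-fold (adjusted p = 1.77e-05, edgeR). In 3 of 4 letters the TSP-4 plasmid library was the higher. The plasmid log2 fold change was 0.22 (SE 0.30, or 0.074 with the replicate block, called in neither fit).

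Hif1a (chr12:73901375-73947530) itself had 96.8, 152, 161 and 91.0 CPM with the TSP-4 plasmid and 90.1, 141, 152 and 97.4 CPM with the empty plasmid, a span of 1.67-fold between letters (adjusted p = 6.43e-07, edgeR). Within a letter the plasmids differed by at most 0.11 on the log2 scale. HIF-1 alpha is controlled mainly through its protein, which was not measured. Hif1a exons overlap those of Gm49321 on the same strand and of Gm15283 on the other, and the strand setting of the counting is not given, so reads of these genes cannot be told apart. The same limit holds for the called members Hk1, Tpi1, Slc2a1 and Ndrg1, whose exons overlap genes on the other strand. It also holds for several members that were not called, among them Pfkm and Pkm, with overlaps on the same strand.

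Adm (chr7:110627661-110629820) had 221, 322, 360 and 187 CPM with the TSP-4 plasmid and 177, 389, 304 and 197 CPM with the empty plasmid, a span of 1.84-fold (adjusted p = 0.0341, edgeR). The call of Adm was lost without library A or D of either group, without both A or both D libraries and without the filter. Its adjusted p ranged up to 0.0964 over all fits run. The letters that were high were those of Egln3.

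The 2 other called members of this group had another order. Vegfa, which encodes the vessel growth factor VEGF-A, was highest in C and D, at 218 and 209 CPM as letter means against 182 and 198 in A and B (adjusted p = 0.0132, edgeR). Ndrg1, a stress-responsive gene, was highest in A, at 42.5 CPM, and lowest in D, at 33.3 CPM (adjusted p = 0.0201, edgeR). Both calls were lost in 3 of the 8 fits that left out 1 library, among them those without TSP-4 plasmid library A. That of Vegfa was also lost without both A and without both C libraries. That of Ndrg1 was lost without both A and without both D libraries, without the plasmid term and under DESeq2. Egln1, Ankrd37 and Car9 were not called between letters.

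**Figure D3:**
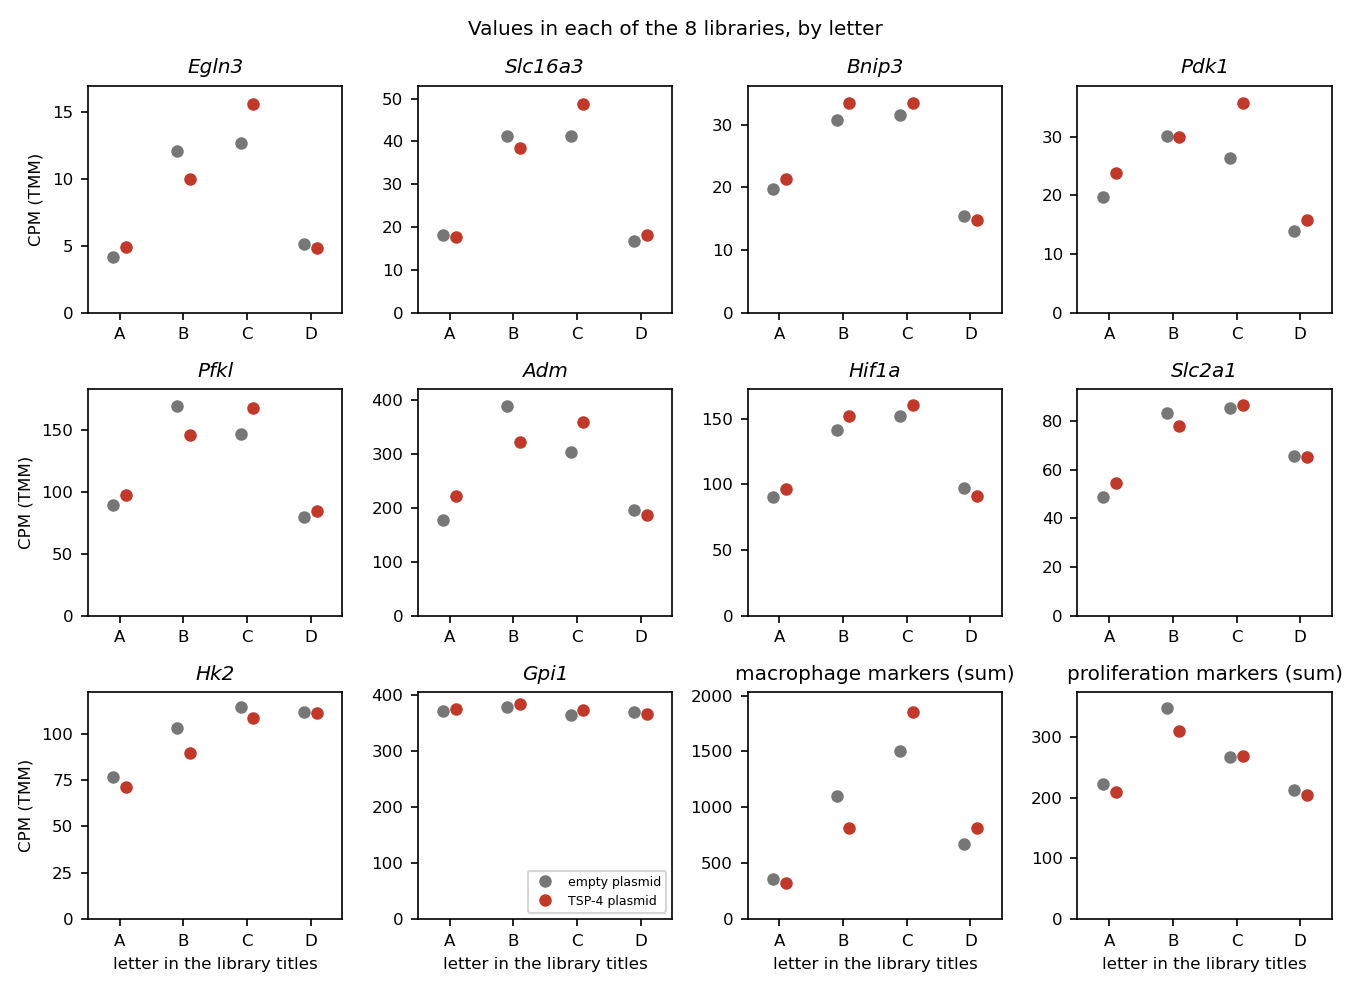
CPM in each of the 8 libraries for 10 members and the summed CPM of 2 marker lists, by the letter in the library titles; grey points are empty plasmid and red points TSP-4 plasmid libraries. Egln3, Slc16a3, Bnip3, Pdk1, Pfkl, Adm and Hif1a are higher in B and C than in A and D in both groups, Hk2 is low in A, and Gpi1 is level.

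Of the transporters, Slc16a3 (chr11:120948480-120960868) had 17.8, 38.5, 48.8 and 18.1 CPM with the TSP-4 plasmid and 18.1, 41.4, 41.2 and 16.6 CPM with the empty plasmid. Every B and C library was above every A and D library, and the letters spanned 2.57-fold (adjusted p = 1.5e-07, edgeR). Slc2a1 (chr4:119108711-119137983), through which basal glucose enters the cell, had 54.6, 77.7, 86.6 and 65.1 CPM with the TSP-4 plasmid and 48.8, 83.1, 85.4 and 65.5 CPM with the empty plasmid, with A lowest and B and C highest (1.67-fold, adjusted p = 1.01e-05, edgeR). Slc16a1, which moves lactate in either direction, did not pass (adjusted p = 0.057, edgeR), and neither did Slc2a3 (adjusted p = 0.0503), whose libraries were lowest in B. Slc2a3 was called under RLE scaling, without the plasmid term, without the filter and without both C libraries, and Slc16a1 without the filter and without empty plasmid library A.

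Of the enzymes, Pfkl (chr10:77986947-78010083), the liver-type phosphofructokinase subunit, had 97.3, 146, 168 and 84.4 CPM with the TSP-4 plasmid and 89.7, 169, 147 and 79.5 CPM with the empty plasmid. It spanned 1.92-fold between letters (adjusted p = 2.33e-05, edgeR), and B and C were again high in both groups. The other subunits did not pass: Pfkm had an adjusted p of 0.762 and Pfkp of 0.423 (edgeR), so the 3 subunits of this enzyme were not called alike, although the difference between subunits was not tested. Pfkfb3 and Pfkfb4, which make the activator fructose-2,6-bisphosphate, were both called, with spans of 1.31-fold and 1.60-fold and A lowest. The call of Pfkfb4 was lost without library A or C of either group, without both A libraries, without the plasmid term and under DESeq2, with an adjusted p up to 0.985, and that of Pfkfb3 was lost without both C libraries.

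Hk2 (chr6:82725025-82774454), the inducible hexokinase, followed another order. It had 71.1, 89.4, 109 and 111 CPM with the TSP-4 plasmid and 76.8, 103, 114 and 112 CPM with the empty plasmid, lowest in A and highest in C and D (1.51-fold, adjusted p = 1.61e-05, edgeR). Hk1 spanned only 1.18-fold and lost its call in 5 of the 8 fits without 1 library. The call of Hk1 was also lost without both A or both B libraries and under DESeq2.

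The abundant enzymes of the later steps differed little. Ldha (699 and 703 CPM as letter means in B and C, 584 and 578 in A and D) spanned 1.22-fold (adjusted p = 0.000622, edgeR) and Tpi1, triose-phosphate isomerase, 1.30-fold (adjusted p = 0.000278). Eno1 was called with C highest (1.21-fold, adjusted p = 0.0011, edgeR), and this call was lost without TSP-4 plasmid library C. Eno2, the neuronal enolase, was called at a low level of 2.98 to 7.78 CPM (1.70-fold, adjusted p = 0.0186, edgeR), and this call was lost under DESeq2 and without TSP-4 plasmid library C. The call of Tpi1 was lost without both D libraries. Aldoa, Aldoc, Gapdh, Pgk1, Pgam1, Pkm, Ldhb and Gpi1 were not called, although Pkm was called without empty plasmid library A and Gapdh without TSP-4 plasmid library B. In that Gapdh fit letter B rested on empty plasmid library B alone, which stood apart at 49.0 CPM. Gpi1 (chr7:34201330-34230336), whose printed promoter holds 0 matches, stayed between 363 and 384 CPM in all 8 libraries, a span of 1.04-fold.

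**Figure D4:**
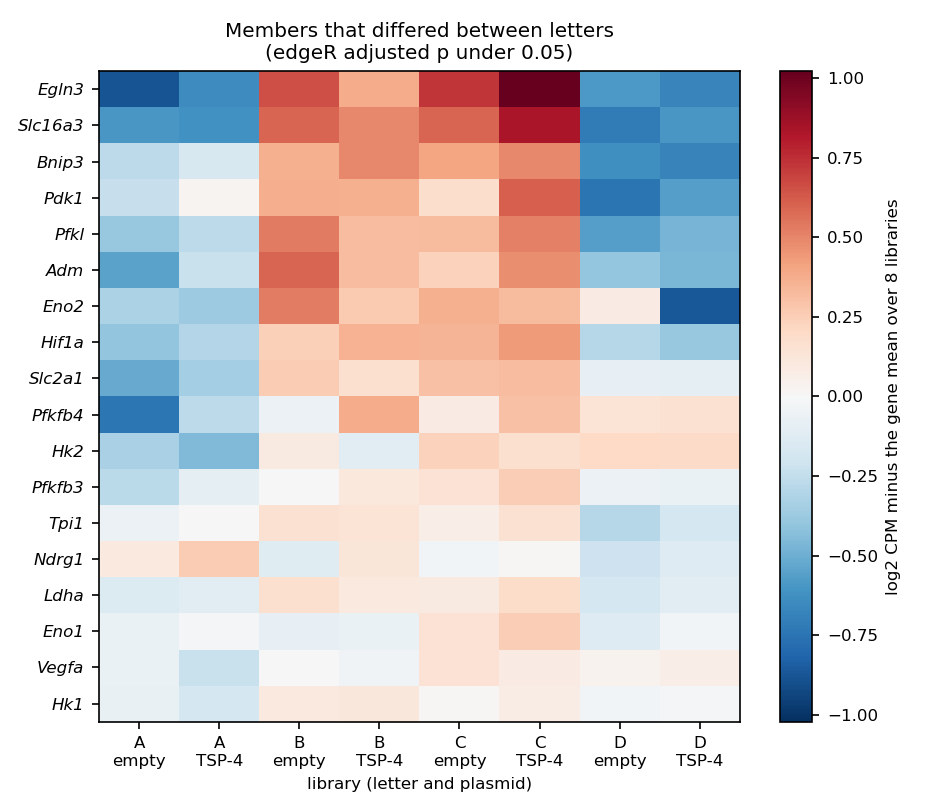
The 18 members called between letters (edgeR adjusted p under 0.05), ordered by the span of their letter means; colour is log2 CPM minus the gene's mean over 8 libraries. Most columns of B and C are red and most of A and D blue, while Hk2 and Vegfa are red in C and D, Eno1 in C and Ndrg1 in A.

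Across alternative settings 13 to 19 of the 34 members were called between letters. Hk2, Pfkl, Ldha, Slc2a1, Slc16a3, Pdk1, Bnip3, Egln3 and Hif1a, 9 in all, were called in every fit run. With both libraries of a letter left out, 13 members were called without A, 17 without B, 16 without C and 15 without D. In these fits 23.8, 23.2, 22.4 and 20.1% of all genes tested were called. Over the fits of all 8 libraries the share of all genes ran from 16.7% without the filter to 28.4% with limma-voom. The share of all genes that were called in every fit was not counted.

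Markers of other cells also moved with the letters. The summed CPM of 12 macrophage markers was 326, 814, 1855 and 814 in TSP-4 plasmid libraries A to D and 359, 1097, 1500 and 675 in the empty plasmid libraries, and 11 of the 12 were called between letters. The summed CPM of 8 proliferation markers was 210, 309, 268 and 204 in TSP-4 plasmid libraries, against 223, 348, 267 and 213 in the others, and 8 of 8 were called. The summed CPM of 10 fibroblast markers was 13902, 14282, 13076 and 9402 in TSP-4 plasmid libraries, against 11936, 14693, 10977 and 9250 in the others, lowest in D in both groups, with 8 of 10 called. The letters with the highest means were B and C for 12 of 12 macrophage markers and 8 of 8 proliferation markers, as for 14 of the 18 called members. They were B and C for 6 of 10 fibroblast markers, and for 2 of 8 endothelial and 1 of 6 mural markers tested. Of all genes, 28.1% were called between letters. B and C were highest in 25.4% of all genes and in 40.4% of the genes called. The macrophage sum, averaged over the plasmids, ran in the order C, B, D and A. Of the 18 called members, 8 were lowest in A and 10 in D, against 1512 and 1062 of the 4134 genes called. Endothelial markers summed to 47.7 to 84.7 CPM, mural markers to 43.5 to 72.5 and cardiomyocyte markers to 12.4 to 17.8, and 0 markers of any list were at 0 in all libraries. The part of the cell mixture and of proliferation in the differences between letters was not tested.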

How the data were processed

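RNA was extracted with Trizol and poly(A) mRNA was sequenced from 8 libraries, 4 per plasmid. The authors deposited a table of raw read counts per gene and one of FPKM values. CASAVA, TopHat2 2.0, Cufflinks 2.1.1 and HTSeq 0.6.1 are named in the submitters' processing notes with the builds mm10 and GRCm38.p6, with no role or order. Start and end of 34 of the 35 member rows equal GENCODE M21. For the strand setting, the annotation and reads with several placements, the settings are not given.

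Counts were filtered with filterByExpr (minimum count 10), scaled by TMM and tested with edgeR 4.0.16 (R 4.3.3), quasi-likelihood with robust fit and Benjamini-Hochberg adjustment over all 14723 genes. The plasmid model had no block, and the letter test took the 3 letter terms of a model with plasmid and letter. CPM are TMM-scaled, and log2 CPM use a prior count of 2. Whether the letters pair the libraries was checked on deviations from the group means: libraries of the same letter correlated at 0.508 to 0.651 and those of other letters at -0.57 to 0.323, so the letters pair them, which rests on the values, since no label says so. No pair of libraries agreed within sampling noise. Alternatives were DESeq2 1.42.0, limma 3.58.1 voom, RLE scaling, no filter, the replicate block and leaving out libraries. Isoform shares were tested by exact permutation of FPKM shares over 70 assignments, or 16 within letters. The scripts were tested on simulated data.

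The members and lists were chosen with earlier results of these data known. All members could be named, and other pathway genes if they had the 3 widest spans among those called or the 3 highest FPKM. Promoters come from RefSeq (GRCm38.p6). Each of the 54 other pathway genes was matched, 1 of them through a synonym.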

Additional observations from a re-analysis of the deposited data

Results flagged for a closer look

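A library far from the other 3 of its group was found in 2 of the 88 groups of 4 values examined, where chance gives about 5% of groups. Gapdh in library B of the empty plasmid had 49.0 CPM against 11.5 to 12.8 CPM in the other 3, so that the gap to the nearest library made up 0.963 of the group's range. Eno1 in library C of the TSP-4 plasmid had 1493 CPM against 1193 to 1234 CPM, a gap of 0.864 of the range. The empty plasmid library C was also the highest of its group for Eno1, at 1389 CPM.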

How the results depend on the processing

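The number of members called between plasmids was 0 under every alternative run, and the number called between letters stayed between 13 and 19 of 34. The lowest count came without library A or C of the TSP-4 plasmid or without both A libraries, DESeq2 gave 14, and RLE scaling and no filter on low counts gave 19. Over all genes, 4134 were called between letters by edgeR and 2700 by DESeq2. None of the 10 shares passed in any fit, where a single share could not pass after the adjustment. Most plasmid log2 fold changes lay close to 0. The sign turned under some alternative for 19 members and 6 shares and under none for the other 15 members. The cause was not tested. Leaving out 1 library at a time, the log2 fold change ran over -0.038 to 0.059 for Hk1, -0.21 to 0.024 for Hk2, -0.15 to 0.23 for Pfkl, -0.0089 to 0.055 for Pfkm, -0.033 to 0.040 for Pfkp, -0.011 to 0.033 for Aldoa, -0.061 to 0.45 for Aldoc, -0.021 to 0.12 for Tpi1, -0.0066 to 0.13 for Eno1, -0.048 to 0.027 for Pkm, -0.021 to 0.10 for Ldha, -0.14 to 0.12 for Slc2a1, -0.11 to 0.16 for Slc2a3, -0.24 to 0.28 for Slc16a3, -0.087 to 0.0064 for Vegfa, -0.086 to 0.27 for Bnip3, -0.37 to 0.31 for Egln3, -0.078 to 0.19 for Hif1a and -0.13 to 0.27 for Adm. The differences between shares ran over -5.72 to 4.33 for Slc16a3, -1.71 to 0.98 for Pfkp, -0.42 to 0.53 for Slc2a3, -2.80 to 2.98 for Bnip3, -0.0027 to 0.021 for Aldoc and -0.99 to 2.39 for Egln3 percentage points. With the replicate block the log2 fold change was -0.0010 for Hk1. With limma-voom it was -0.00046 for Hk1. With RLE scaling it was 0.0024 for Pfkp. With DESeq2 it was 0.0023 for Pfkp. With the replicate block in DESeq2 it was 0.00084 for Pfkp. With the block and without letter A it was 0.0078 for Pfkp, 0.013 for Pkm, -0.025 for Slc2a1 and -0.032 for Adm. With the block and without letter B it was -0.0073 for Hk1 and -0.037 for Pfkm. With the block and without letter C it was -0.022 for Hk1, -0.0061 for Pfkl, 0.031 for Pfkp, -0.0037 for Aldoa, -0.0094 for Slc16a3, -0.064 for Egln3 and -0.0087 for Adm. With the block and without letter D it was -0.068 for Slc2a3. The replicate block, with the letter as the pairing, changed no other call: 0 members were called with it and without it. Depth limits Aldoc, Ankrd37, Slc2a3 and Car9 most, the members with the lowest FPKM. The removal of both libraries of a letter was chosen after seeing the data.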

Other observations

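Other genes of the same pathways were taken by name, 54 in all with 48 tested. By edgeR's quasi-likelihood test at an adjusted p under 0.05, 0 were called between plasmids, where 1 of all 14723 genes was called. Between letters 21 (43.75%) were called, against 28.1% of all genes. Of these 21, 12 (57.1%) had their highest letter means in B and C, against 40.4% of all genes called. Among the genes called, the widest spans belonged to Hk3, the hexokinase best known from myeloid cells, to Epas1, which encodes HIF-2 alpha, and to Ak4, a mitochondrial adenylate kinase. Angptl4 spanned 4.01-fold, with B and C highest, but was not called (adjusted p = 0.0702, edgeR). Hk3 had 5.87, 18.8, 36.5 and 16.4 CPM in TSP-4 plasmid libraries A to D and 7.28, 24.0, 31.7 and 16.1 CPM in the empty plasmid libraries, a span of 5.13-fold (adjusted p = 5.9e-07). Its letter means ran in the order C, B, D and A, as did the macrophage marker sum. Epas1 had 65.9, 120, 160 and 61.7 CPM with the TSP-4 plasmid and 54.0, 128, 116 and 56.3 CPM with the empty plasmid, a span of 2.31-fold (adjusted p = 0.000685). Ak4 had 30.6, 41.8, 50.7 and 24.4 CPM with the TSP-4 plasmid and 27.0, 44.5, 47.0 and 25.7 CPM with the empty plasmid (1.94-fold, adjusted p = 3.52e-06). Both were high in B and C.

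The most abundant of these genes per length were Bsg (basigin, the chaperone of the lactate transporters) at 346 FPKM, Mif at 275 and Taldo1 (transaldolase of the pentose phosphate pathway) at 144. Bsg was called between letters (adjusted p = 0.0029, edgeR), while Mif (0.282) and Taldo1 (0.0681) were not. Pdha1, a subunit of the pyruvate dehydrogenase that Pdk1 inhibits, was picked out after its values were seen. It had 155, 137, 130 and 147 CPM with the TSP-4 plasmid and 158, 137, 132 and 151 CPM with the empty plasmid, lowest in C and highest in A, so its order over letters differed from that of Pdk1 (1.19-fold, adjusted p = 0.0067, edgeR). Hilpda, a lipid droplet gene induced by hypoxia and also picked out after its values were seen, stayed between 6.39 and 7.96 CPM (adjusted p = 0.906, edgeR).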
